A study of Mus musculus with 16 samples.

Results

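Regulated release of transmitter depends on a small set of protein families, and 67 of their genes are described here across the cell classes of the mouse hippocampus and across 4 genotype groups. The members were chosen by symbol: synaptotagmins (Syt followed by a number), vesicle-associated membrane proteins (Vamp), syntaxins (Stx), syntaxin-binding proteins (Stxbp), SNAP proteins (Snap followed by a number), Rab3 GTPases, synapsins (Syn), SV2 proteins, complexins (Cplx) and Munc13 proteins (Unc13). Of the 32285 genes in the files, 69 symbols fitted these patterns, and 67 of them had at least 200 unique molecular identifiers (UMIs, 1 per captured RNA molecule) over the nuclei of all 16 libraries. That minimum is the only measured value in the rule, which was set with earlier results of these data known. Just inside it were Stx11 with 214 UMIs and Syt15 with 289, and just outside it Syt8 with 52 and Cplx4 with 38.

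Hippocampal nuclei of 16 mice, all female and 9 months of age, had been profiled by single-nucleus RNA sequencing, 4 mice in each group. Mice were wild type for Ch25h (Ch25h+/+) with Tau- or with Tau+, or were labelled Ch25h-/-, again with Tau- or with Tau+, so that tau and the loss of Ch25h, the gene of cholesterol 25-hydroxylase, can be read separately and together. The labels name neither the tau allele nor its promoter, and they do not say which part of Ch25h was deleted or how. Nothing in them ties a library to a litter or a preparation day, so p-values measure the spread between these libraries.

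A vesicle fuses when a SNARE on the vesicle (Vamp) zips up with SNAREs on the target membrane (a syntaxin and a SNAP protein). The Munc13 proteins help to assemble that complex and prime the vesicle, complexins clamp it, and a synaptotagmin triggers fusion when calcium enters the terminal. Synapsins and Rab3 hold and deliver vesicles near the release site, and SV2 proteins sit in the vesicle membrane. The same families serve other routes of membrane traffic in every cell, such as endosomal fusion and the secretion of granules, so a symbol in the list does not by itself mark a synaptic role. Snap91, for example, encodes a clathrin adaptor and not a SNARE.

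A promoter motif can be shown beside these genes because many neuron-restricted genes are known to carry RE1, the element bound by the repressor REST in cells outside the nervous system. The canonical RE1 motif, 21 letters of which 19 are fixed, was searched on both strands, from 250 bases before to 50 bases after each RefSeq gene start (GRCm38.p6), with up to 4 fixed letters allowed to differ. Of the 67 members, 53 had such a window. The letters were found in 3 of these 53 (5.66%), against 74 of all 27025 genes with a window (0.274%). The matches are printed below with the bases beside them, 5′ to 3′ along the motif, and capitals mark the letters that match a fixed letter of the motif.
Syn1: cggaTTCAGCACCgcGGtCAGaGCCttcg
Stxbp5l: ctcggTtAGgACCtcGGAgAGCGCCaggc
Syt6: tagaTcCtGaACCctGGACAGCcCCccac
The run of Syn1 lies at chrX:20921126-20921154 on the minus strand, which is the strand of the gene, and differs from the motif at 2 letters. The match in Stxbp5l (chr16:37384933-37384961, minus strand, the strand of the gene) differs at 4 letters and begins 1 base after the annotated start. That in Syt6 (chr3:103575878-103575906, minus strand, opposite to the gene) also differs at 4. Such matches describe letters and show no binding. In the data below, Syn1 and Stxbp5l were higher in each neuron class than in each glial class, and Syt6 was not.

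Libraries held 7601 to 10567 nuclei after filtering and 40766753 to 64704459 UMIs in them, and the members made up 0.824 to 0.870% of those UMIs in the 8 Tau+ and 0.881 to 0.927% in the 8 Tau- libraries. That share is a description that also moves with the mix of cell classes. Any pair of libraries shared 8 to 36 barcodes. Ch25h itself had few UMIs and was not lower in the libraries labelled Ch25h-/-, with 89 UMIs (Tau-) and 107 (Tau+) there against 46 (Tau-) and 102 (Tau+) in Ch25h+/+. The genotype is therefore that of the labels in every comparison below. Within each group, the main axis of deviation from the group mean set replicates 1 and 2 (side A) apart from replicates 3 and 4 (side B), for 16 of 16 libraries in 6 of the 8 classes tested and 15 of 16 in microglia and in other excitatory neurons. The labels give no reason for that split, so results are also given within each side. The sides were read from these same libraries, so a fit with the side as a term takes out spread that defined the sides. Calls with that term are therefore a description.

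Nuclei were clustered and named from marker genes that include none of the 67 members. Comparisons used the 8 classes for which no library had fewer than 20 nuclei. There were 20149 pyramidal neurons of the CA fields, 21970 granule neurons of the dentate gyrus (DG), 20128 other excitatory neurons and 9397 inhibitory neurons. The glial classes held 13714 astrocytes, 22588 oligodendrocytes, 3807 oligodendrocyte precursors and 5808 microglia. Levels are UMIs of a gene per 1000000 UMIs of the class in a library (CPM), given as mean ± SD over the 16 libraries, and they compare classes within a gene. Members took part in forming the clusters, so the levels are a description without a test, and clusters formed without the members gave 20 in place of the 19 below.

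In 19 of the 67 members the mean level of each of the 4 neuron classes lay above that of each of the 4 glial classes. The order was the reverse in 7 members, and in the other 41 the neuron and glial classes overlapped. Averaged over classes, 31 members were at least 2-fold higher in neurons, 8 at least 2-fold higher in glia and 28 lay between. The gap was at least 10-fold in 4 members, Syt1 (31.5-fold), Sv2b (15.2-fold), Sv2c (13.7-fold) and Syt7 (12-fold). The list thus joins a neuronal set to members whose CPM is as high or higher in glia. CPM is a share of the UMIs of a class and does not give molecules per nucleus. The median UMIs of a nucleus ran, over libraries, from 7819 to 12827.5 in CA pyramidal neurons and from 1063 to 1988.5 in microglia. By mean CPM, the class with the most members at their highest level was microglia, with 17. In 7 of these 17 microglia lay above the class that followed in all 16 libraries, and in 2 (Stx11 and Stxbp2) in fewer than 8.

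**Figure D1:**
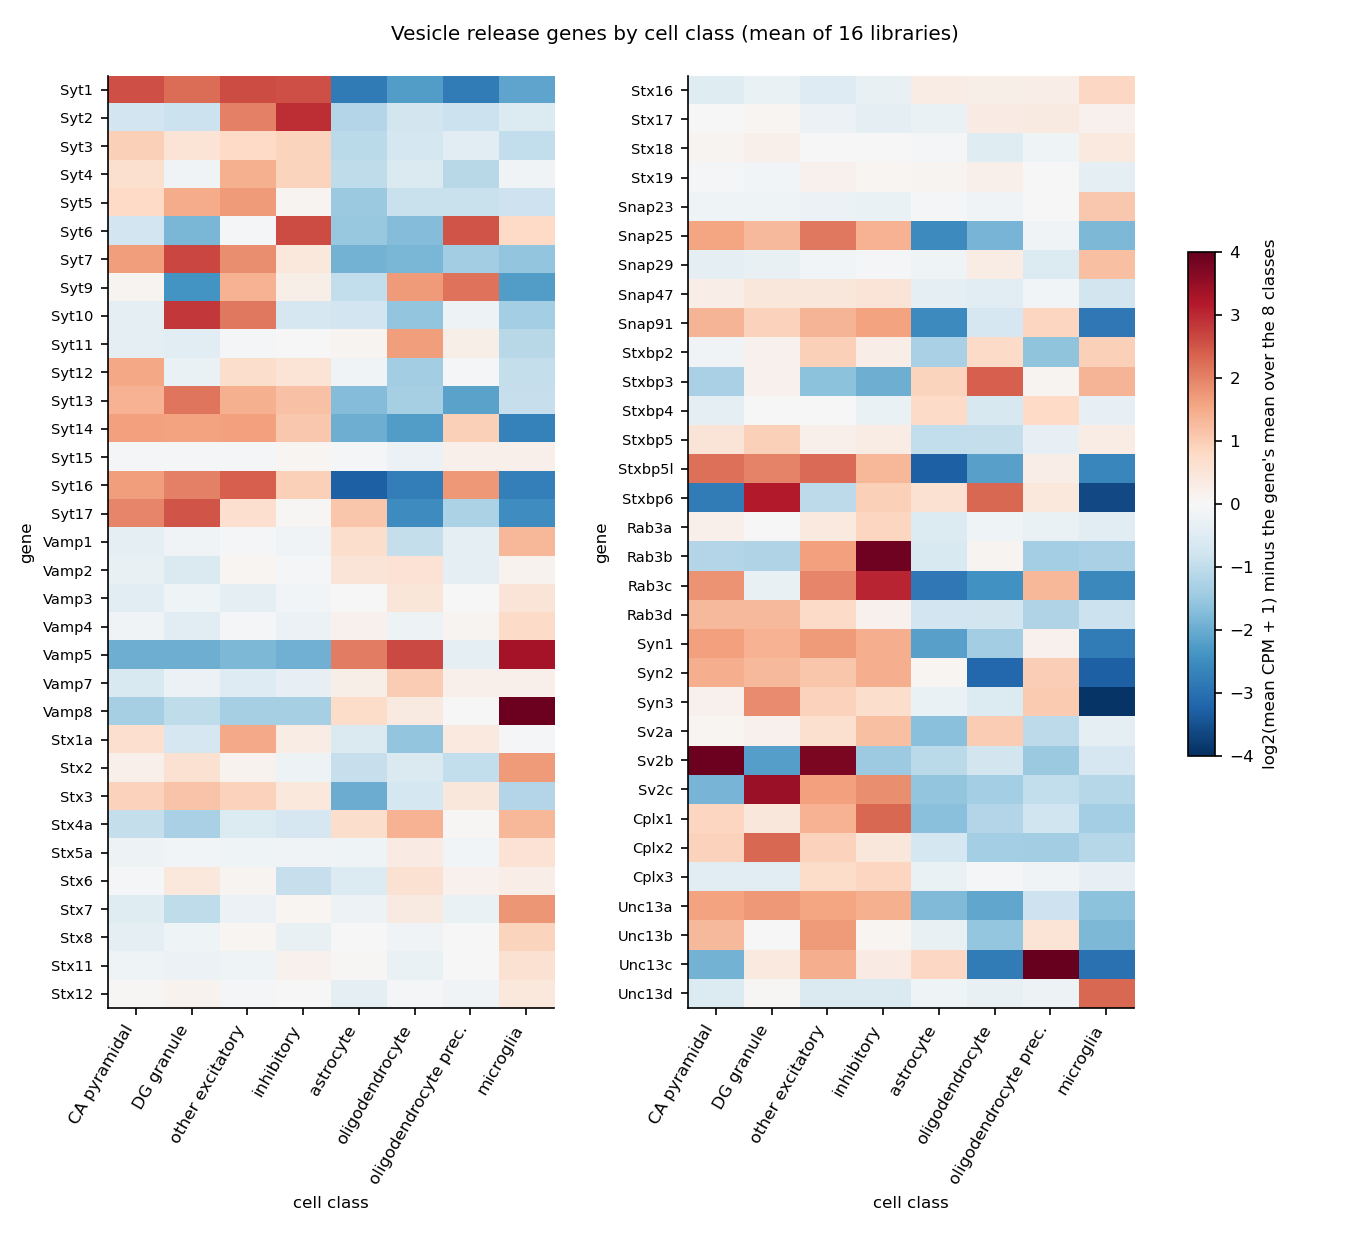
Mean level of 65 of the 67 vesicle release genes (rows) in 8 cell classes (columns), as log2(mean CPM + 1) minus the gene's mean over the classes, in 16 libraries. Red marks classes above and blue classes below the gene's own mean. The colours stop at 4 and -4. Syt1, Snap25 and Unc13a are red in the 4 neuron columns, while Vamp5 and Vamp8 are darkest in microglia.

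The synaptotagmins carry the calcium sensors. Syt1, the fast sensor of synchronous release, read 3380 ± 189 CPM in CA pyramidal, 2640 ± 192 in DG granule, 3420 ± 167 in other excitatory and 3380 ± 166 in inhibitory neurons, against 78.6 to 129 in the glial classes. Syt7, a slower sensor of high calcium affinity, was highest in DG granule neurons at 398 ± 30.4 CPM, followed by 225 ± 14.7 in other excitatory, 196 ± 17.5 in CA pyramidal and 82.4 ± 7.17 in inhibitory neurons. Its order differed from that of Syt1, which was lowest among neurons in DG granule cells. Syt2, a fast sensor like Syt1, was uneven among neurons. It read 41.5 ± 8.74 CPM in inhibitory and 21.1 ± 6.75 in other excitatory neurons. Within the interneurons it read 97.2 ± 25.7 CPM in the Pvalb and 36.2 ± 13 in the Sst type, and 3.52 ± 4.49 in the Vip and 2.47 ± 1.68 in the Lamp5 type. Its level in CA pyramidal and DG granule neurons was 2.20 ± 0.543 and 2.0 ± 0.596 CPM.

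Other synaptotagmins marked other cells. Syt17 was highest in DG granule neurons (149 ± 12.4 CPM) and, within the CA fields, read 142 ± 28.7 in CA1 against 62.3 ± 8.59 in CA3 and 14.0 ± 10.7 in CA2. Syt10, among the 8 classes highest in DG granule neurons (50.1 ± 8.91 CPM), reached 545 ± 99.3 CPM in ependymal cells, the ciliated lining of the ventricles, in the 13 libraries with enough of them. Syt9 was highest in oligodendrocyte precursors (33.8 ± 5.53 CPM) and in other excitatory neurons varied most (19.0 ± 12.1 CPM). Outside the 8 classes it read 115 CPM in choroid plexus cells. Syt6 read 163 ± 31.2 CPM in the 1 inhibitory cluster that took no subtype name, whose leading genes include Syt6, and 44.6 ± 10.5 in Vip interneurons, against 0.226 to 2.10 in the other interneurons. Syt11, which does not bind calcium, was highest in oligodendrocytes at 459 ± 115 CPM, 2.68 times the level in their precursors. Glia did not share that level: astrocytes read 157 ± 36.0 CPM and microglia, the lowest class, 65.8 ± 14.8, against 107 to 145 in the neuron classes.

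The remaining synaptotagmins were neuronal in most cases. Syt4 and Syt5, proteins of dense-core and synaptic vesicles, were highest in other excitatory neurons at 62.1 ± 11.2 and 50.3 ± 9.38 CPM, as was Syt16 at 299 ± 19.5. Syt13 was highest in DG granule neurons (89.0 ± 11.9 CPM), and Syt3 and Syt12 in CA pyramidal neurons (23.5 ± 2.58 and 18.3 ± 1.61 CPM). Syt14 read 151 ± 8.80 CPM in CA pyramidal, 149 ± 8.51 in DG granule and 151 ± 9.72 in other excitatory neurons, differences within their SD. Syt15 stayed at or under 0.531 CPM in the 8 classes and read 22.1 CPM in endothelial cells, of which 6 libraries had enough. Of the 16 synaptotagmins, 12 were at least 2-fold higher over neurons and none at least 2-fold higher over glia.

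The vesicle SNAREs gave the opposite picture: each of the 7 Vamp members was highest in a glial class, and in 4 of them every glial class was above every neuron class. Vamp2, the SNARE of synaptic vesicles, read 24.5 ± 4.25 CPM in CA pyramidal and 20.1 ± 2.79 in DG granule neurons, against 46.1 ± 9.08 in oligodendrocytes and 43.7 ± 5.54 in astrocytes. RNA outside nuclei, read from barcodes under 100 UMIs, held Vamp2 at 128 CPM, which is 2.78 times the highest of the 8 classes. Levels in nuclei of this gene therefore lie below those of the free RNA around them in each class. Vamp1, a close relative of Vamp2, was highest in microglia (47.9 ± 12 CPM) and astrocytes (30.6 ± 4.92), with 14.2 to 17.3 CPM in neuron classes. Vamp8, which serves granule and lysosome fusion, read 44.1 ± 11 CPM in microglia and 3.96 ± 1.22 in astrocytes. That ratio of 11.1 between the highest and the second of the 8 classes was the largest of all 67 members. Outside the 8 classes Vamp8 read 52.8 CPM in endothelial cells, above microglia. Vamp5 read 0.0885 to 0.212 CPM in the neuron classes, 41.8 ± 11.6 in microglia and 125 CPM in fibroblasts. By the mean among the 8 classes, Vamp3 (17.1 ± 8.4 CPM) and Vamp4 (110 ± 22.2) of endosomes were also highest in microglia, and Vamp7 (32.5 ± 5.77), of lysosomes, in oligodendrocytes.

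In 15 members the free RNA level was above that of all 8 classes, among them Syt4 (3.14 times the highest class), Rab3a (3.09 times), Syt3 (2.09 times), Syt5 (2.07 times) and Sv2a (2.02 times). A level in nuclei describes nuclear transcripts, and for these genes it is the smaller reading. The free RNA also bears on low levels. Markers of other cells read, as a median, at 0.0855 of their free RNA level in oligodendrocytes, 0.0890 in microglia, 0.110 in astrocytes and 0.210 in oligodendrocyte precursors. Syt1 (1710 CPM in free RNA) and Snap25 (1010 CPM, both over the pooled free RNA of all libraries) have glial levels near such fractions, so their readings in glia were not read as expression. A member is counted as above background in a glial class where its share of the free RNA level is over 2 times that median. The cut is rough, since single markers of other cells lay far above it. The highest read 9.01 in astrocytes, 3.14 in microglia, 4.23 in oligodendrocytes and 7.40 in oligodendrocyte precursors.

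Of the target-membrane SNAREs, the synaptic Snap25 was highest in other excitatory neurons (1240 ± 132 CPM), followed by 862 ± 108 in CA pyramidal, 760 ± 60.5 in inhibitory and 716 ± 50.7 in DG granule neurons. Oligodendrocyte precursors read 261 ± 27.4 CPM. Snap23, its relative in cells outside the nervous system, was highest in microglia at 110 ± 27.1 CPM and read 43.0 to 50.3 in the other 7 classes. Snap29 was also highest in microglia (28.4 ± 11.2 CPM), Snap47 in inhibitory neurons (59.2 ± 6.46 CPM), and the clathrin adaptor Snap91 in inhibitory neurons (330 ± 12.7 CPM), with 574 CPM in choroid plexus cells.

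Stx1a, a syntaxin of the synaptic complex, was modest in nuclei. It read 58.6 ± 12 CPM in other excitatory, 32.5 ± 3.33 in CA pyramidal, 24.8 ± 2.34 in inhibitory and 12.3 ± 1.5 in DG granule neurons, and 26.7 ± 6.34 in oligodendrocyte precursors. Among the 15 syntaxins, 12 had their highest mean in a glial class, though in 4 of the 12 alone did that class lie above the next in all 16 libraries. Stx11 rests on 11 UMIs in microglia, and Stx17 and Stx19 were 1.02 and 1.01 times the class that followed. By the mean, microglia were highest for Stx2 (82.6 ± 14.2 CPM), Stx5a (117 ± 20.4), Stx7 (183 ± 36.4), Stx8 (176 ± 15), Stx11 (0.849 ± 1.41), Stx12 (70.7 ± 17.0), Stx16 (269 ± 38.2) and Stx18 (86.8 ± 15.6). Most of these act on endosomes, the Golgi or the endoplasmic reticulum, and Stx7, a syntaxin of late endosomes, was 2.66 times its level in oligodendrocytes. Oligodendrocytes were highest for Stx4a (72.5 ± 6.87 CPM), Stx6 (95 ± 14.9) and Stx19 (15.4 ± 2.14), and their precursors for Stx17 (46.3 ± 6.86). Stx3 was highest in DG granule neurons (69.2 ± 12.1 CPM).

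Among the syntaxin-binding proteins, Stxbp3 was highest in oligodendrocytes (261 ± 27.4 CPM) with 11.9 to 55.9 in neurons, and Stxbp2 read 17.5 ± 7.33 CPM in microglia and 17.4 ± 1.84 in other excitatory neurons. The tomosyns compete for SNAREs. Stxbp5 was highest in DG granule neurons (276 ± 23.5 CPM), but microglia read 176 ± 24.7, within the range of 163 to 203 in the other 3 neuron classes. Stxbp5l read 862 ± 59.2 CPM in other excitatory and 832 ± 74.2 in CA pyramidal neurons, and each neuron class was above each glial class. Within the CA fields Stxbp5l stood out in CA2, at 2960 ± 271 CPM against 742 ± 61.5 in CA1 and 699 ± 52.9 in CA3. Stxbp6 (amisyn) read 794 ± 89.0 CPM in DG granule neurons and 431 ± 39.3 in oligodendrocytes, but 11.8 ± 1.76 in CA pyramidal neurons. Stxbp4 was highest in oligodendrocyte precursors (103 ± 11.4 CPM) and reached 450 CPM in choroid plexus cells.

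Among priming factors, Unc13a (Munc13-1) was even across neurons, at 119 to 148 CPM with the highest mean in DG granule cells. Unc13b read 213 ± 13.8 CPM in other excitatory and 162 ± 15.6 in CA pyramidal neurons but 66.2 ± 6.35 in DG granule and 69.5 ± 4.03 in inhibitory neurons. Unc13c, best known from the cerebellum, was highest among the 8 classes in oligodendrocyte precursors, at 652 ± 97.1 CPM. That is 9.14 times its level in other excitatory neurons. Outside the 8 classes it read 731 CPM in ependymal cells. Unc13d, known for granule release in blood cells, read 11.8 ± 5.77 CPM in microglia and at most 1.67 elsewhere among the 8 classes.

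**Figure D2:**
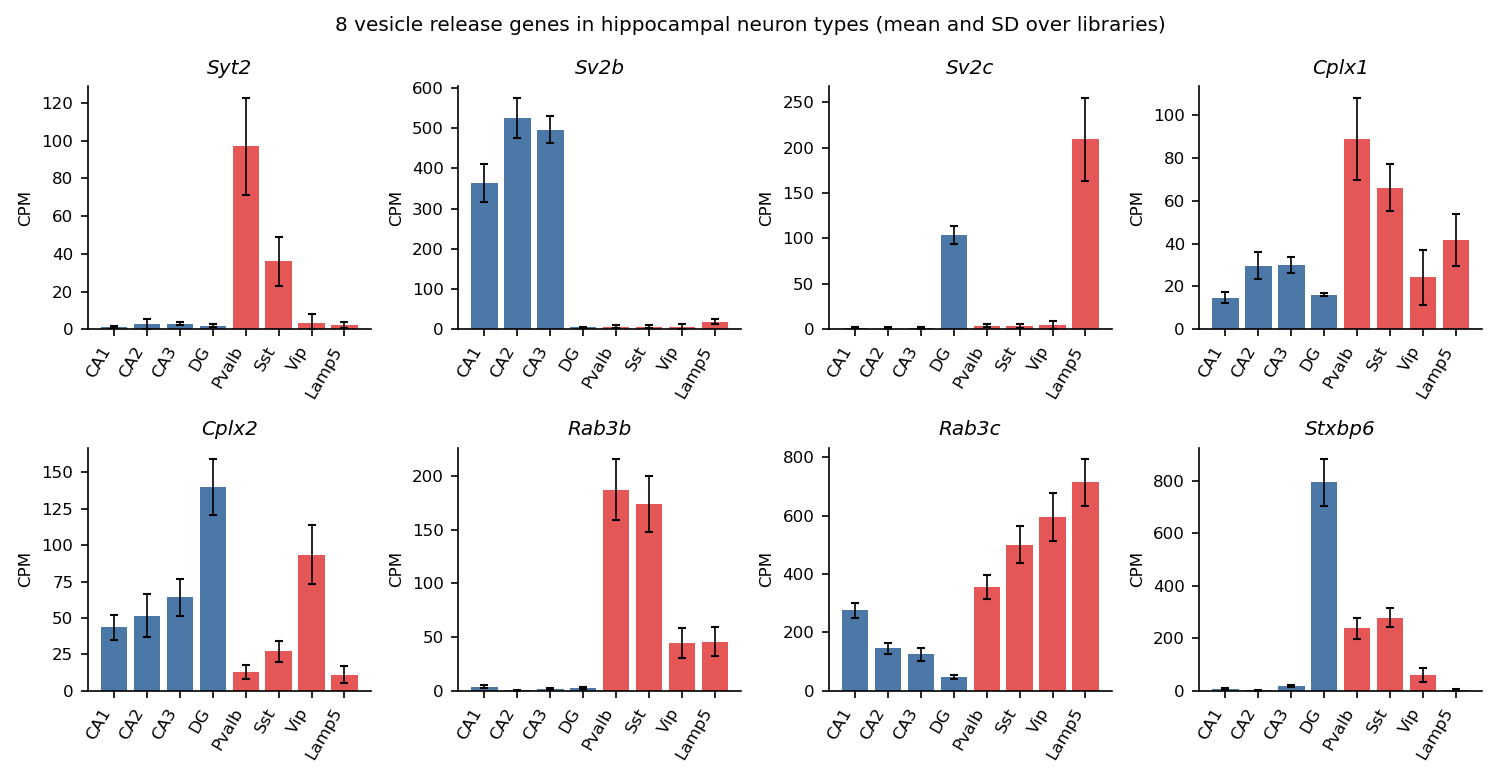
Level (CPM, bars starting at 0, error bars SD over libraries) of 8 vesicle release genes in CA1, CA2, CA3 and dentate gyrus neurons (blue) and in 4 interneuron types (red). Syt2 and Rab3b are tallest in Pvalb interneurons, Sv2c and Rab3c in Lamp5 interneurons, and Cplx2 and Stxbp6 in dentate granule neurons.

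The vesicle proteins and complexins split the neurons into types. Sv2b was high in CA pyramidal (425 ± 30.6 CPM) and in other excitatory neurons (381 ± 26.5). By CA field it stood at 363 ± 47.8 CPM in CA1, 525 ± 50.5 in CA2 and 496 ± 33.9 in CA3. It read 5.17 ± 1.73 in DG granule and 9.40 ± 2.90 in inhibitory neurons. Sv2c showed the complement, with 104 ± 9.92 CPM in DG granule neurons and 209 ± 45.9 in Lamp5 interneurons but 1.65 ± 0.473 in CA pyramidal neurons. The other 3 named interneuron types read 3.96 to 4.40 CPM. Sv2a was broader, at 135 ± 20.1 CPM in inhibitory neurons and 117 ± 17.2 in oligodendrocytes, with 60.7 to 90.1 in excitatory classes.

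Cplx1 and Cplx2 were high in different interneurons. Pvalb interneurons read 88.9 ± 19.2 CPM of Cplx1 and 13.2 ± 4.83 of Cplx2, while Vip interneurons read 24.2 ± 13 of Cplx1 and 93.6 ± 20.4 of Cplx2. DG granule neurons had the highest Cplx2 of the 8 classes (140 ± 19.1 CPM) and the lowest Cplx1 among neurons (16.2 ± 0.759). Cplx3 read 9.32 ± 4.58 CPM in Lamp5 interneurons and at most 1.59 in the 8 classes. It is among the leading genes of a Lamp5 cluster and also of a cluster of other excitatory neurons led by Ccn2 as well. Its UMIs numbered 254 in other excitatory and 129 in inhibitory neurons, so it was not particular to the Lamp5 type.

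Rab3a read 28.5 ± 6.42 CPM in inhibitory neurons and 15.5 to 20.7 in excitatory classes, with 10.3 to 13.6 in glia. Rab3b read 128 ± 14.8 CPM in inhibitory neurons, 26.5 ± 5.28 in other excitatory and 2.85 ± 1.08 in CA pyramidal neurons. Among interneurons it stood at 187 ± 28.5 CPM in Pvalb and 174 ± 26.1 in Sst against 44.2 ± 13.8 in Vip and 45.6 ± 13.5 in the Lamp5 type. Rab3c ran from 356 ± 42.1 CPM in Pvalb to 714 ± 80.0 in Lamp5 interneurons. Rab3d was low throughout, at most 7.02 ± 1.08 CPM in DG granule neurons. Of the synapsins, Syn1 lay between 121 and 151 CPM in the neuron classes and between 5.60 and 51.2 in glia. Syn2 read 446 to 571 CPM in neurons, 412 ± 70.6 in oligodendrocyte precursors and 216 ± 34.1 in astrocytes. Syn3 was highest in DG granule neurons (264 ± 32.5 CPM).

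The effect of tau was then read within each class. Counts were summed per library and class and tested with edgeR's quasi-likelihood test across all genes, and a gene is called changed at an adjusted p (Benjamini-Hochberg over all genes of a class and comparison) under 0.05. Folds are log2 with their standard error (SE). Of the 67 members, 65 passed the filter on low counts in at least 1 class and 29 in all 8, which gave 436 pairs of a member and a class in each comparison. A member that is high in 1 group alone can pass the filter through that group.

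In Ch25h+/+ mice no member was called for tau, against 0.233% of all gene and class pairs. At an unadjusted p under 0.05 there were 31 pairs (7.11%), against 6.70% of all genes' pairs, with 12 higher and 19 lower in Tau+. In the mice labelled Ch25h-/-, 1 member pair was called, Syt9 in CA pyramidal neurons, against 0.162% of all pairs and 0.0729% of the genes of that class. The unadjusted count was 34 (7.80%), against 7.93% over all genes, with 9 higher and 25 lower. Over both Ch25h genotypes, which compares 8 Tau+ with 8 Tau- libraries, 1 pair was called, Stx7 in microglia, against 1.08% of all pairs and 9.05% of the genes of microglia. The unadjusted count was 57 pairs (13.1%), 20 higher and 37 lower, against 9.92% over all genes. These 3 comparisons share libraries, so their counts are not separate evidence. For 1 call among 436 pairs the share is near or under the background. Over both genotypes the count rose to 7 with the split between sides A and B as a term, where 1.73% of all pairs were called. It rose to 5 with DESeq2, where 1.41% were. Within side B, for which no share over all pairs is given, it was 0.

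Most folds were small. Over both genotypes the median fold of the 436 pairs was -0.04, with 274 below 0, and the median of all genes was 0.00. By class the median of the members was lowest in microglia (-0.09), oligodendrocytes (-0.06), inhibitory neurons and other excitatory neurons (each -0.05). Syt6 in other excitatory neurons had the highest fold, 0.94 (SE 0.45, adjusted p = 0.655), and Syn2 in microglia the lowest, -0.81 (SE 0.28, adjusted p = 0.0661), at a level in microglia that did not exceed background (below).

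**Figure D3:**
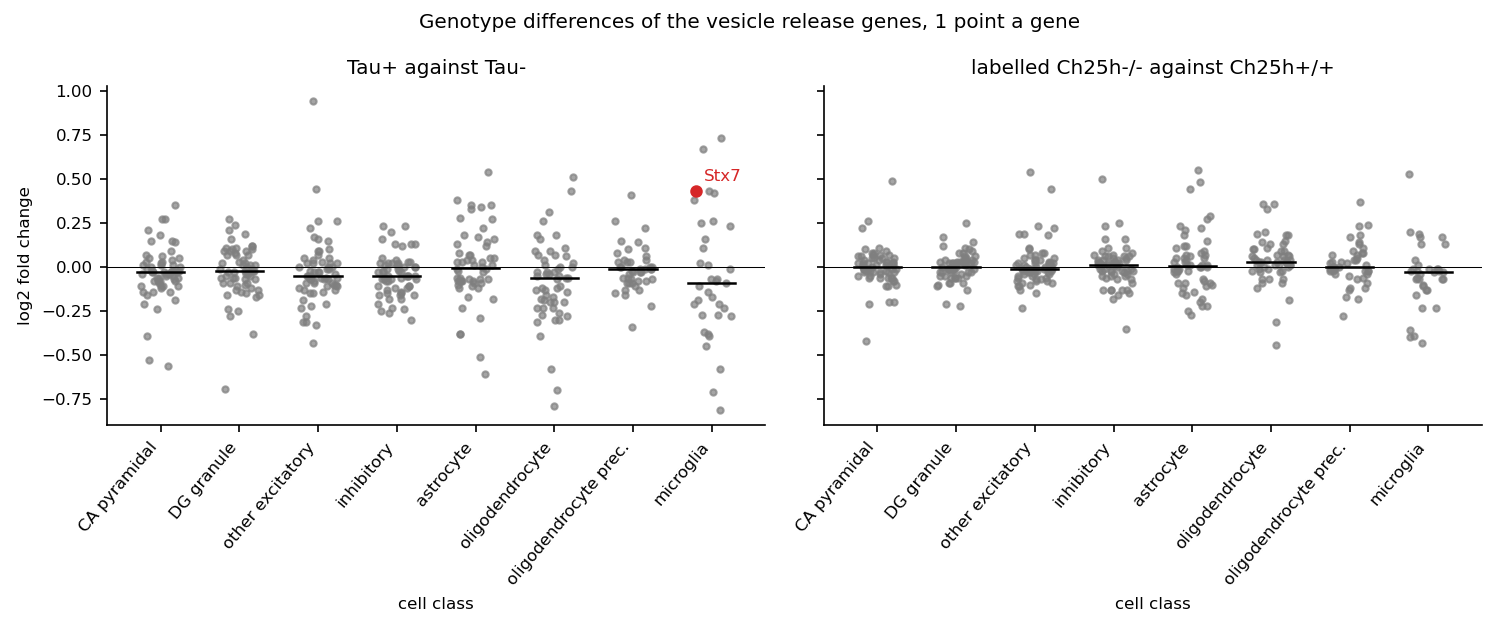
Log2 fold change of each tested vesicle release gene (1 point a gene, bar at the median) in 8 classes, for Tau+ against Tau- over both Ch25h genotypes (left) and for the libraries labelled Ch25h-/- against Ch25h+/+ over both tau states (right). Medians lie between -0.09 and 0.00 on the left, and Stx7 in microglia (red, 0.43) is the member called.

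For 21 core release genes (among them Syt1, Syt2, Syt7, Vamp2, Snap25, Cplx1, Cplx2, Syn1, Sv2a, Unc13a and Unc13b) the size of a missed change can be bounded. In the 4 neuron classes they gave 83 pairs, whose tau fold over both genotypes ran from -0.69 (Unc13c in DG granule neurons, SE 0.23, adjusted p = 0.363) to 0.27 (Sv2c in CA pyramidal neurons, SE 0.22, adjusted p = 0.762). In 72 pairs the fold was within 0.25 of 0, and in 72 pairs its 95% interval, from the SE, excluded a change of 1.5-fold in either direction. The interval is not adjusted for the number of pairs. An unadjusted p under 0.05 was found in 17 of the 83, against 8.18% of all genes' pairs in these classes, and 29 of the 83 folds were above 0. Elsewhere the bound held for fewer: the interval excluded 1.5-fold in 61 of 83 neuron pairs among the mice labelled Ch25h-/-, in 71 of 83 in Ch25h+/+, and in 39 of 60 glial pairs over both genotypes.

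Syt9 (7:107370728-107548656, plus strand, GRCm38), a calcium sensor that is scarce in CA neurons, was lower in the Tau+ libraries among mice labelled Ch25h-/-. Its level in CA pyramidal neurons was 4.21, 4.80, 4.30 and 5.65 CPM in Tau+ (replicates 1 to 4) and 9.89, 8.51, 13.6 and 9.26 CPM in Tau-. The groups did not overlap, and their means were 4.74 ± 0.658 and 10.3 ± 2.28 CPM (SD, n = 4), from 269 and 544 UMIs. The fold was -1.09 (SE 0.17, adjusted p = 0.0136 by edgeR). In Ch25h+/+ mice Tau+ read 7.16, 6.50, 6.21 and 8.92 CPM and Tau- read 5.24, 6.90, 7.74 and 7.82, which overlap (fold 0.02, SE 0.17, adjusted p = 0.997). The highest of the 4 groups was thus labelled Ch25h-/- Tau- and the lowest labelled Ch25h-/- Tau+, with both Ch25h+/+ groups between. The difference between these 2 tau effects was -1.11 (SE 0.24) with an unadjusted p of 2.14e-04 and an adjusted p of 0.771 by edgeR, so it was not called.

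Syt9 was uneven among the CA clusters, and the share of those clusters moved with the groups. Cluster 3 (CA1) read 1.19 CPM and made up 46.5% of CA nuclei in Tau+ and 32.2% (15.8 to 44.1% per library) in Tau- among the libraries labelled Ch25h-/-. Cluster 7 (CA1, 17.1 CPM) made up 19.1 and 23.0%, cluster 21 (CA3, 18.2 CPM) 5.56 and 9.95%, and cluster 44 (CA3, 29.8 CPM) 1.33 and 3.41%. Clusters high in Syt9 thus made up a larger share of the Tau- nuclei. With the share of each cluster held fixed in every library, a calculation added after these values were seen, Syt9 was 5.32 ± 0.596 CPM (4.67 to 5.95) in Tau+ and 9.02 ± 1.62 CPM (6.86 to 10.7) in Tau- (n = 4 each). The log2 ratio was -0.76, against -1.12 for the same means as summed. It is given without a test, since Syt9 was singled out by these same libraries. The same calculation in Ch25h+/+ mice gave a log2 ratio of 0.07.

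The level was also read by field and cluster, without a test in CA2 or CA3. CA1 neurons read 5.50 ± 1.62 CPM (3.63 to 7.20) in the Tau+ and 10.6 ± 3.19 (8.37 to 15.2) in the Tau- libraries labelled Ch25h-/-. CA3 neurons read 4.03 ± 1.07 (3.33 to 5.62) and 10.9 ± 2.55 (8.56 to 13.2). These means hold the changed shares of clusters. Over the pooled nuclei of a cluster, Tau+ and Tau- read 1.07 and 1.47 CPM in cluster 3 and 14.0 and 19.3 in cluster 7, the CA1 clusters. In CA3 they read 1.66 and 3.93 CPM in cluster 5, 9.45 and 23.9 in cluster 21 and 26.6 and 33.4 in cluster 44. Cluster 31 (CA2) read 1.35 and 5.45 CPM, from 4 and 12 UMIs alone. Each cluster was thus lower in Tau+, by more in clusters 5, 21 and 31 than in the CA1 clusters. The CA1 and CA3 clusters rest on 20 to 228 UMIs a cluster and group. Marker lists of other cells in the same CA sums had no gene at 0. The inhibitory list of 8 genes summed to 15.2 to 24.6 CPM in Tau+ and 28.0 to 40.8 in Tau-, without overlap, the choroid plexus list of 6 to 104 to 161 and 118 to 173, the astrocyte list of 8 to 168 to 203 and 180 to 266, and the oligodendrocyte precursor list of 7 to 538 to 660 and 560 to 639. Their part in the Syt9 difference was not tested.

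The call for Syt9 depends on single libraries and on the settings. The adjusted p was 0.0775, 0.0708 and 0.0997 without replicate 1, 2 or 3 of the group labelled Ch25h-/- Tau+ and 0.0663 without replicate 3 of that labelled Ch25h-/- Tau-, with folds between -1.17 and -0.95 over all 16 omissions. Within side A the fold was -1.02 (adjusted p = 0.153), within side B -1.14 (0.0800), in CA1 alone -0.89 (0.223), with clusters formed without the members -1.23 (0.0697), with these 2 groups alone -1.09 (0.0830) and with limma on mean CPM -0.99 (0.0658).

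**Figure D4:**
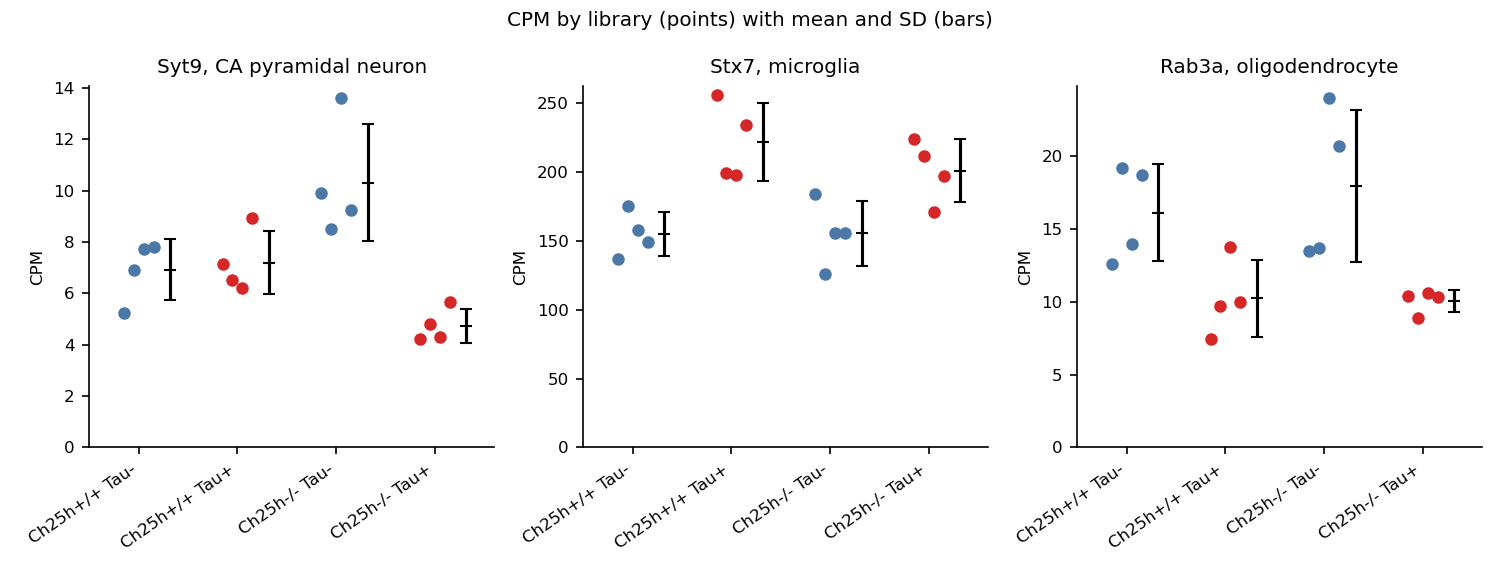
CPM in each library (points, blue Tau-, red Tau+) with the mean and SD of each group of 4 (bars), for Syt9 in CA pyramidal neurons, Stx7 in microglia and Rab3a in oligodendrocytes. Syt9 separates the groups labelled Ch25h-/- alone, Stx7 is higher in both Tau+ groups, and Rab3a, at a level not above background, is lower in both Tau+ groups without being called by edgeR with the groups alone.

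Other members of the CA sums in the mice labelled Ch25h-/- came near the threshold. Syt6 read 1.40 ± 0.561 CPM in Tau+ and 3.48 ± 0.586 in Tau- (fold -1.29, SE 0.32, adjusted p = 0.129), and their ranges of 0.828 to 2.15 and 2.85 to 4.26 did not overlap. Syt6 was highest in inhibitory neurons (32.7 ± 6.59 CPM), and the inhibitory list in these CA sums was lower in Tau+ without overlap, as the shares of the CA clusters also differed (above). Their part in the Syt6 difference was not tested. Unc13b, a priming factor, read 180 ± 2.79 (177 to 184) and 148 ± 9.76 (135 to 157), again without overlap (fold 0.31, SE 0.07, adjusted p = 0.116). Neither was called by edgeR, and DESeq2 called both (adjusted p = 0.0243 and 0.0108). How many of all genes separate these groups without overlap was not counted. The share of all genes that DESeq2 called in this comparison is not given either, so neither reading is a result about the members.

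Stx7 (10:24149302-24190222, plus strand), the late-endosome syntaxin that was highest in microglia, rose with tau in these cells. In Tau+ it read 256, 199, 198 and 234 CPM with Ch25h+/+ and 224, 212, 171 and 197 with the label Ch25h-/-. In Tau- it read 137, 175, 158 and 149 CPM with Ch25h+/+ and 184, 126, 156 and 156 with the label Ch25h-/-. In 7 of the 8 Tau+ libraries the level was above that of every Tau- library, with means of 211 ± 26.3 and 155 ± 18.9 CPM (SD, n = 8). The fold over both genotypes was 0.43 (SE 0.10, adjusted p = 0.00752). It was 0.49 (SE 0.15, adjusted p = 0.0676) within Ch25h+/+ and 0.36 (SE 0.14, adjusted p = 0.222) within the mice labelled Ch25h-/-, neither called.

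Stx7 kept its call without any single library (adjusted p 0.00404 to 0.0264, folds 0.38 to 0.47). The fold was 0.50 (adjusted p = 0.0139) within side A and 0.35 (0.410) within side B, and limma on mean CPM gave 0.37 (0.0609). Depth moved with tau in these cells: the median UMIs of a microglial nucleus ran from 1487 to 1756 over the libraries of Ch25h+/+ Tau+ against 1063 to 1252.5 in Ch25h+/+ Tau-, and from 1345 to 1988.5 against 1180 to 1560 in those labelled Ch25h-/-. The 9 microglial markers summed to 8070 to 11300 CPM in Tau+ and 9760 to 12300 in Tau-, and the 6 markers of border macrophages, in which Stx7 read 160 CPM, to 2.01 to 35.7 and 0 to 26.3. Lists of other cells also differed in these sums, as means of the Ch25h+/+ group and the group labelled Ch25h-/-. The astrocyte list averaged 376 and 409 CPM in Tau+ against 489 and 492 in Tau-, and the DG granule list 106 and 88.6 against 132 and 139. The endothelial list (62.3 and 70.6 against 57.1 and 61.5) and the choroid plexus list (322 and 166 against 200 and 157) went the other way. The part of depth and of these lists in the rise was not tested. With nuclei of at least 1000 UMIs alone, the fold was 0.47 (adjusted p = 0.00447).

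Microglia held 10 of the 57 tau pairs at an unadjusted p under 0.05, among 35 members tested there (28.6%, against 21.2% of all genes of the class). Of these, 5 were higher in Tau+. Beside Stx7 they were Snap29 (fold 0.67, SE 0.23, adjusted p = 0.0787), Stxbp2 (0.73, SE 0.27, 0.0961), Stx6 (0.38, SE 0.14, 0.0864) and Vamp8 (0.42, SE 0.17, 0.134). None of these 4 was called. Lower in Tau+ were Syn2 (-0.81, SE 0.28, 0.0661), Unc13b (-0.71, SE 0.27, 0.107), Snap47 (-0.58, SE 0.23, 0.124), Syt1 (-0.37, SE 0.13, 0.0878) and Stxbp5 (-0.21, SE 0.10, 0.234). Syt1 in microglia read 114 ± 19.0 CPM in Tau+ and 144 ± 28.9 in Tau-, levels that were not read as expression (above). Syn2 there, 20.5 ± 10.5 CPM over all libraries, was at 0.0764 of its free RNA level, under the 0.0890 of other cells' markers, and was not read as expression either. The marker list of CA1 neurons in the same microglial sums ranged from 332 to 468 CPM in Tau+ and 391 to 560 in Tau-. Its part in these differences was not tested.

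Other settings moved some of these across the threshold. With the split between sides A and B as a term, Syn2 (adjusted p = 0.0261), Stxbp2 (0.0437) and Syt1 (0.0498) were called. Snap29 was called without replicate 3 of Ch25h+/+ Tau+ (adjusted p = 0.0429) or replicate 2 of the group labelled Ch25h-/- Tau+ (0.0351), and Stx6 without replicate 1 of Ch25h+/+ Tau- (0.0473). Syn2 was called without replicate 4 of Ch25h+/+ Tau- (0.0202), replicate 2 of the group labelled Ch25h-/- Tau+ (0.0405) or replicate 4 of that labelled Ch25h-/- Tau- (0.0313), and Syt1 without the last of these (0.0307). Most of the 16 single omissions gave no call. Snap29 was not called in 14 (adjusted p up to 0.153), Stx6 in 15 (0.188), Syn2 in 13 (0.215) and Syt1 in 15 (0.256). Stx3 in microglia fell under the filter on low counts. It read 18.6 ± 6.61 CPM in Tau+ and 7.40 ± 5.02 in Tau- (n = 8 each), and with no filter its fold was 1.36 (SE 0.34, adjusted p = 0.00256). It passed the filter and was called with clusters formed without the members (1.34, adjusted p = 0.0194), within side A (1.77, 0.00698) and with limma on mean CPM (1.56, 0.0343). Single omissions let it pass in 13 cases (adjusted p 0.0116 to 0.0602), and in the 10 that called it the adjusted p was at most 0.0428. With 0 to 7 UMIs in each Tau- library and 4 to 22 in each Tau+ library, Stx3 can pass the filter through Tau+ alone, so these calls are a description and no support. The free RNA, as means over libraries, held 71.7 CPM of Stx3 in Tau+ and 57.9 in Tau-. Choroid plexus cells read 99.5 CPM of Stx3. Their list in these sums averaged 322 and 166 CPM in Tau+ (Ch25h+/+ first) against 200 and 157 in Tau-. The DG granule list, of a class also high in Stx3, was lower in Tau+ (above). Their part in the Stx3 difference was not tested.

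Rab3a (8:70754679-70758677, plus strand), the GTPase that tethers vesicles near the release site, had a fold below 0 in each of the 6 classes tested, at an unadjusted p under 0.05 in each, and was called in none by edgeR with the groups alone. The folds were -0.39 in CA pyramidal neurons (SE 0.14, adjusted p = 0.361), -0.38 in DG granule neurons (SE 0.15, 0.460), -0.43 in other excitatory neurons (SE 0.15, 0.527), -0.30 in inhibitory neurons (SE 0.13, 0.741), -0.61 in astrocytes (SE 0.19, 0.103) and -0.70 in oligodendrocytes (SE 0.17, 0.0992). The 6 classes come from the same libraries and so are not separate tests. In oligodendrocytes the 8 Tau+ libraries ran from 7.45 to 13.8 CPM with a median of 10.2, and the 8 Tau- libraries from 12.6 to 24.0 with a median of 16.4. All Tau+ libraries but 1, replicate 3 of Ch25h+/+ Tau+, were below every Tau- library. Of the 16 single omissions, only that of this library gave a call (adjusted p = 0.0410 by edgeR). The other 15 did not (adjusted p up to 0.202). Since the omitted library is the one that overlapped Tau-, that call is no support. The split between sides A and B runs through every group, and with it as a term Rab3a was called in oligodendrocytes (fold -0.71, adjusted p = 0.0184), as it was by DESeq2 (0.0350). Over the 11 settings other than single omissions, the adjusted p ran from 0.0184 to 0.195. The free RNA of the same libraries held, on average over libraries, 59.4 CPM of Rab3a in Tau+ (45.3 to 66.4) and 106 in Tau- (64.2 to 159), a log2 ratio of -0.83, so the gene was lower there as well. In glia Rab3a did not exceed background, at 0.155 of its free RNA level in oligodendrocytes and 0.117 in astrocytes, so the glial folds were not read as changes of expression there.

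Snap25 (2:136713453-136782428, plus strand) had tau folds of -0.24 in CA pyramidal neurons (SE 0.06, adjusted p = 0.191), -0.22 in other excitatory neurons (SE 0.06, 0.391), -0.13 in DG granule neurons (SE 0.05, 0.380) and -0.12 in inhibitory neurons (SE 0.05, 0.783), none called. In CA pyramidal neurons it was called with the split as a term (fold -0.24, adjusted p = 0.0193) and by DESeq2 (0.0380), and the 11 settings gave 0.0193 to 0.340. There it read 802 ± 44.2 and 777 ± 38.6 CPM in the Tau+ groups and 923 ± 68.6 and 946 ± 147 in the Tau- groups, with Tau+ from 745 to 839 and Tau- from 801 to 1100 CPM, which overlap. Averaged over libraries, its free RNA level was 959 CPM in Tau+ and 998 in Tau- (log2 ratio -0.06). Folds below 0 in every class tested were also found for Syt1, Syt11 and Vamp7 (8 classes each) and for Syt4, Stx19 and Rab3c (7 each). The same held for Sv2b (6) and Cplx1 (5), and the lowest adjusted p by edgeR was 0.0878 (Syt1). Stx12 (8 classes), Syt12 (5), Sv2c (4) and Vamp8 (2) had folds above 0 throughout, with a lowest adjusted p of 0.134 (Vamp8). The classes share libraries, and some of these glial levels did not exceed background. The share of all genes with such folds was not counted.

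By family, the 91 synaptotagmin pairs had a median tau fold of -0.06 with 62 below 0, the 45 Vamp pairs -0.07 with 32 below 0 and the 108 syntaxin pairs 0.00 with 53 below 0. The 23 Rab3 pairs had a median of -0.14 with 18 below 0, and the 13 complexin pairs had a median of -0.11 with 11 below 0. For the Munc13 proteins, 24 pairs, and the synapsins, 22 pairs, the medians were -0.00 and -0.01. An unadjusted p under 0.05, found in 9.92% of all pairs, was found in 11 of 23 Rab3 pairs, of which 6 are Rab3a in the same libraries. The count was 9 of 91 for synaptotagmins, 7 of 45 for Vamp, 8 of 108 for syntaxins, 5 of 54 for syntaxin-binding proteins and 6 of 38 for SNAP proteins. It was 4 of 13 for complexins, 5 of 24 for Munc13, 2 of 22 for synapsins and 0 of 18 for SV2 proteins.

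Loss of Ch25h was compared by label, which the Ch25h reads do not bear out. No member was called in Tau+ mice (0.00572% of all pairs were), in Tau- mice (0.00286%) or over both tau states (0.0124%), and none was called for the interaction of tau and Ch25h loss (0 of 104928 pairs). Over both tau states 10 member pairs (2.29%) had an unadjusted p under 0.05, against 2.73% of all pairs, 8 higher and 2 lower in the libraries labelled Ch25h-/-. The corresponding counts were 9 in Tau+ (2.06%, against 3.31% of all pairs) and 19 in Tau- (4.36%, against 3.53%). For the interaction there were 17 (3.90%, against 4.16%). DESeq2 called none in any of these 4 comparisons, for which its share over all pairs is not given. The 10 pairs included Unc13a (fold 0.48, SE 0.17), Unc13b (0.23, SE 0.10), Rab3a (0.44, SE 0.19) and Rab3c (0.55, SE 0.22) in astrocytes and Unc13c in CA pyramidal neurons (0.49, SE 0.21), each with an adjusted p of 1.0. In astrocytes Unc13b was above background, at 0.723 of its free RNA level, while Unc13a (0.122), Rab3a (0.117) and Rab3c (0.0572) were not.

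For the 21 core genes the folds of Ch25h loss over both tau states in neurons ran from -0.23 (Sv2c in other excitatory neurons, SE 0.17) to 0.49 (Unc13c in CA pyramidal neurons), and 78 of 83 pairs were within 0.25 of 0. In 77 of 83 the interval excluded a change of 1.5-fold, as it did in 46 of 60 glial pairs. Ch25h lies on chromosome 19 (34473778-34475164, GRCm38), as do 4 members, Stx3, Stx5a, Syt7 and Syt12, each at least 22.7 Mb from it. Their folds for Ch25h loss over both tau states lay between -0.39 and 0.29 with a lowest unadjusted p of 0.150.

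The rest of the release machinery was counted over a list of 55 genes of the active zone, vesicle transporters, calcium channels, SNARE disassembly and vesicle recycling, of which 54 were tested in 372 pairs. For tau over both genotypes 6 pairs were called, 3 higher and 3 lower, where 1.08% of all pairs were. Of these 6, 5 lay in microglia among 31 tested there, where 9.05% of all genes were called. Cadps, a priming factor of dense-core vesicles, rose in astrocytes (fold 0.67, SE 0.16, adjusted p = 0.0404). In microglia the calcium channel gene Cacna1a (1.66, SE 0.29, 0.00336) and the phosphatase gene Synj2 (0.97, SE 0.19, 0.00138) rose. The active zone scaffold Pclo (-0.90, SE 0.27, 0.0326) and the clathrin assembly gene Picalm (-0.35, SE 0.11, 0.0447) were among those lower there. Pclo read 14.3 ± 5.39 CPM in Tau+ and 28.4 ± 11.7 in Tau- (n = 8 each), at 0.0679 of its free RNA level, under the 0.0890 of other cells' markers, and was not read as expression. Picalm, at 12.4 times its free RNA level, fell from 1030 ± 166 to 827 ± 140 CPM. In the same microglial sums the CA1 list averaged 387 and 377 CPM in the Tau+ groups and 521 and 467 in the Tau- groups, and the inhibitory list 41.9 and 54.7 against 76.0 and 81.5. Their part in the lower Pclo was not tested. In Ch25h+/+ mice alone 1 pair was called, Synj2 in microglia (1.2, SE 0.27, 0.0207), against 0.233% of all pairs and 2.41% of the genes of microglia. In each of the other 5 comparisons 0 pairs were called. The unadjusted counts for tau were 55 pairs (14.8%) over both genotypes, beside 13.1% of the members' pairs and 9.92% of all pairs.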

How the data were processed

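Nuclear RNA of 16 hippocampi was sequenced by 10x Genomics 3' chemistry (labels' protocols). The authors deposited raw UMI counts per gene for all barcodes; Cell Ranger 3.1.0 and the build mm10 are named per the submitters' processing notes; whether intronic reads were counted is not given in the sources used here.

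Nuclei had at least 500 UMIs, 300 genes, at most 5% mitochondrial UMIs and 3 times the median UMI count of barcodes ranked 40001 to 60000 (147873 nuclei). Scrublet scores removed 11045 doublets, leaving 136828. Leiden clustering (resolution 1.0, 50 components, 20 neighbours, 3000 genes; scanpy 1.11.5) gave 92 clusters. A name needed at least 3 markers raised 2-fold and 60% of a list, a share set after the clusters were seen; 50 clusters stayed unnamed, 35 of them mostly doublets, and 125322 nuclei were named.

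UMI counts were summed per library and class and tested with edgeR 4.0.16 (TMM, filterByExpr, robust quasi-likelihood, 1 mean per group, 16 libraries, two-sided) in 7 contrasts. The fit was tested on simulated data. Alternatives were DESeq2 1.42.0, limma 3.58.1 on log2(mean CPM + 1), other scaling, filters, clusterings and subsets of libraries.

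Named were members called, the 21 core release genes, each member's highest class, and the members nearest the 200 UMI minimum; genes near the threshold and those that only an alternative called were added after their values were seen. Members and lists were chosen with earlier results of these data known. Coordinates are from GENCODE M21, which held all 67 members. Some results on single genes are not reported here.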

Additional observations from a re-analysis of the deposited data

Results flagged for a closer look

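Libraries that stood apart within their group of 4 were looked for in 17 pairs of a member and a class, 68 groups in all. The pairs were those called in any setting. Chance marks about 1 in 20 groups, or 3.4 of 68, and 2 libraries were found, both for Vamp2, the vesicle SNARE of synapses. In inhibitory neurons, replicate 1 of the group labelled Ch25h-/- Tau+ read 32.1 CPM and the other 3 libraries 18.9 to 20 CPM. In other excitatory neurons, replicate 3 of the group labelled Ch25h-/- Tau- read 46.0 CPM and the other 3 libraries 34.0 to 35.8. Vamp2 was not called for tau in the mice labelled Ch25h-/- in either class: the fold was -0.53 (SE 0.14, adjusted p = 0.814) in inhibitory and -0.58 (SE 0.16, adjusted p = 0.580) in other excitatory neurons by edgeR. Without replicate 1 of the group labelled Ch25h-/- Tau+ the folds were -0.75 (adjusted p = 0.0174) and -0.81 (adjusted p = 0.0189), so both were called. In the other 15 single omissions neither was. Vamp2 was looked at because it was called in that setting, so that the same library stood apart is no separate evidence.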

How the results depend on the processing

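Members called for tau in Ch25h+/+ numbered 0, and 1 (Stx7 in microglia) with no filter, with nuclei of at least 1000 UMIs or with the split between sides A and B as a term; leaving out single libraries gave 0 to 1, with 1 without replicate 3 of Ch25h+/+ Tau+. In the mice labelled Ch25h-/- the count was 1, but 3 with DESeq2 (Syt9, Syt6 and Unc13b in CA pyramidal neurons) and 0 within side A, within side B, with clusters formed without the members, with 2 groups alone, with CA1 for CA and with limma; leaving out single libraries gave 0 to 2, with 0 without replicate 2 or 3 of the group labelled Ch25h-/- Tau+ or replicate 3 of that labelled Ch25h-/- Tau-, and 2 without replicate 1 of the group labelled Ch25h-/- Tau+. Over both genotypes it was 1, but 5 with DESeq2, 3 with no filter, 7 with the split as a term, 7 within side A, 0 within side B and 2 with clusters formed without the members (Stx7 and Stx3 in microglia), and 1 to 4 without single libraries, with 4 without replicate 3 of Ch25h+/+ Tau+, replicate 2 of the group labelled Ch25h-/- Tau+ or replicate 4 of that labelled Ch25h-/- Tau-. With limma the count was also 1, but the gene was Stx3 in place of Stx7. Over both genotypes 1.41% of all pairs were called with DESeq2 and 1.73% with the split as a term. No such share is given beside the other counts from alternative settings and single omissions. These counts are therefore not read as a result about the members. The split term called Stx7, Stxbp2, Syn2 and Syt1 in microglia, Rab3a in oligodendrocytes and Snap25 and Syt9 in CA pyramidal neurons. Side A called Stx3, Stx7, Stx12, Syn2 and Syt1 in microglia and Stxbp6 and Sv2b in astrocytes. Side B reversed the folds of Stx12 in microglia (-0.11, adjusted p = 0.908; 0.25 with all libraries) and Sv2b in astrocytes (0.19, adjusted p = 0.856; -0.38 with all libraries), the latter at 0.0546 of its free RNA level and so not above background there. The causes were not tested, beyond the smaller number of libraries in a side. The 4 comparisons on Ch25h loss and the interaction had 0 calls in each setting run. The count of 19 members with every neuron class above every glial class was 19 to 20 without single libraries. No paired analysis was possible because replicates were numbered in the order of deposit and the labels tie no library to one of another group. The split term blocks by side, with 2 libraries of each group on each side, and pairs none. Depth limits the low genes most: Syt9 in CA pyramidal neurons rests on 61 to 153 UMIs a library, and Stx3 in microglia on 10 to 64 a group.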
